A study of Mus musculus with 4 samples.

Results

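The genes described here are the 32 collagen genes whose chains do not form the classical banded fibrils, out of 22359 protein-coding genes of the mouse annotation used (GENCODE M1, genome build mm9). They were taken by name from the collagen family and no binding value entered the rule, but earlier results of these data were known when they were chosen. A Runx2 peak was counted for a member when it overlapped the gene, widened by 10 kb on each side, by at least 1 bp. This gave 84 different peaks of 25457 on day 0, 229 of 60596 on day 9 and 153 of 40330 on day 28.

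The peaks came from ChIP-Seq of Runx2, the transcription factor required for osteoblast differentiation, in MC3T3-E1 subclone 4, a clonal preosteoblast line from mouse calvaria of C57BL/6 origin. Cells were taken at day 0 (proliferating preosteoblasts), day 9 (osteoblasts depositing matrix) and day 28 (mineralizing osteoblasts), and the labels name no genetic change in any group. The differentiation medium added ascorbic acid, a cofactor of collagen hydroxylation, and beta-glycerophosphate, a phosphate source. Chromatin was precipitated with the Runx2 antibody M70, and enrichment on every day was judged against input DNA of day 9 cells, so day 0 and day 28 had no input of their own. The authors pooled the reads of 2 libraries per day before calling peaks, so each day is a single list with no replicate spread, no difference between days could be tested, and the intervals given below cover counting error only. The read depth behind each list is not part of the peak files, and read numbers that the study gives elsewhere were not used here, so the part of depth in list length was not tested.

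Collagens are trimers of chains wound into a triple helix. The fibrillar types carry the tensile strength of bone, while the other types build the sheets of basement membranes, the beaded filaments around cells, the short chain networks of cartilage and eye, the links on fibril surfaces (the FACIT group) and collagens held in the cell membrane. Runx2 binds DNA through its Runt domain at the hexamer TGTGGT, which reads ACCACA on the opposite strand, and fibrillar collagen genes are among its known bone targets.

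The hexamer was found close to the centre of some of the highest-scoring peaks at these genes. Score here is the peak caller's 10 times -log10 p, which is at least 100 in these lists, and its percentile is the share of the same list's peaks that score lower, with tied peaks counted as lying in the middle of their tie. Percentiles are ranks in lists of unequal length, so an order of percentiles over the days is a description of the lists. The 6 windows below reach 50 bases to either side of the centre of the highest-scoring day 9 peak with a hexamer and no untranslated region in the window, for the 6 members where that score was highest. They are printed 5′ to 3′ on the plus strand of mm9, with each hexamer in capitals.
Col4a1: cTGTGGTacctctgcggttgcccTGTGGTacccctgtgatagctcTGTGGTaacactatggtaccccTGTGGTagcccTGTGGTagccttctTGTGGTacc
Col15a1: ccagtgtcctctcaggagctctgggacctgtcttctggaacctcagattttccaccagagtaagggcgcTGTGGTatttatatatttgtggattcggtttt
Col4a2: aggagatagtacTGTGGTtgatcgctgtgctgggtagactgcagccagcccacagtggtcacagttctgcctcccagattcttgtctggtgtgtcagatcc
Col23a1: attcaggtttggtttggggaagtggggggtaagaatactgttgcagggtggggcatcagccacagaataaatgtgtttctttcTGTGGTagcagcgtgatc
Col13a1: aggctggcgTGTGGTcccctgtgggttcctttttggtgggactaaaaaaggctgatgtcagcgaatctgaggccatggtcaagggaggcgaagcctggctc
Col6a2: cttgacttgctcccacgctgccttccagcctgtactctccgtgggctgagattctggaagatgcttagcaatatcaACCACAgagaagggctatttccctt

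The Col4a1 window lies in intron 27 at chr8:11223307-11223407, and its peak had a day 9 score of 3216. The Col15a1 window is 5960 bp beyond the 3′ end of the gene at chr4:47331949-47332049, with a score of 3100. The Col4a2 window is in intron 4 at chr8:11387430-11387530, with a score of 2974. All 3 of these peaks lay above the 94th percentile of the day 9 list.

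The Col23a1 window is in intron 2 at chr11:51208248-51208348, with a score of 2963. The Col13a1 window is in intron 14 at chr10:61353338-61353438, with a score of 2172. The Col6a2 window lies 9150 bp before the gene at chr10:76095475-76095575, with a score of 1884. Each of these 3 windows holds a single hexamer, and in Col6a2 it reads on the minus strand. The Col4a1 window differs from the rest, since it repeats a short unit and holds 6 hexamers, and how reads map to such a repeat was not tested.

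Across the members, 25 of 32 (78.1%, exact 95% binomial interval 60.0 to 90.7) had a peak on day 0, against 59.0% of all protein-coding genes. On day 9 the count was 31 of 32 (96.9%, interval 83.8 to 99.9), against 72.2% of all genes. On day 28 it was 27 of 32 (84.4%, interval 67.2 to 94.7), against 66.4%. Collagen genes are long, and a long gene meets a peak more often. Among other genes of 80% to 125% of each member's length, called genes of like length from here on, the mean share with a peak was 71.8% on day 0, 85.6% on day 9 and 78.6% on day 28, and these values lie inside the members' intervals on all 3 days.

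The median member held 2, 5 and 4 peaks on days 0, 9 and 28, where the median gene held 1, 2 and 1. The most on any member was 11 on day 0, 22 on day 9 and 13 on day 28. From day 0 to day 9, 23 of 32 members (71.9%) had more peaks, 6 had as many and 3 had fewer, while 52.6% of the 22327 other genes had more. From day 9 to day 28, 19 members (59.4%) had fewer peaks and 4 had more, against 42.6% of other genes with fewer.

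These counts moved with the length of the lists. As a share of their list, the members' peaks made up 0.330% on day 0, 0.378% on day 9 and 0.379% on day 28. When only the 25457 top-scoring peaks of each list were kept, the members had 84, 96 and 97 peaks on days 0, 9 and 28. Of the 229 day 9 peaks, those left out had scores of 346, the lowest score kept on that day, or less. Peaks were present on all 3 days in 24 members, on day 9 alone in Col4a4, Col9a1 and Col25a1, on days 9 and 28 in Col13a1, Col19a1 and Col20a1 and on days 0 and 9 in Col28a1. The shares of all genes with these combinations of days were not counted. Just outside the 10 kb limit, the nearest day 28 peak was 16.2 kb from Col28a1 and the nearest day 0 peak 18.2 kb from Col20a1.

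**Figure D1:**
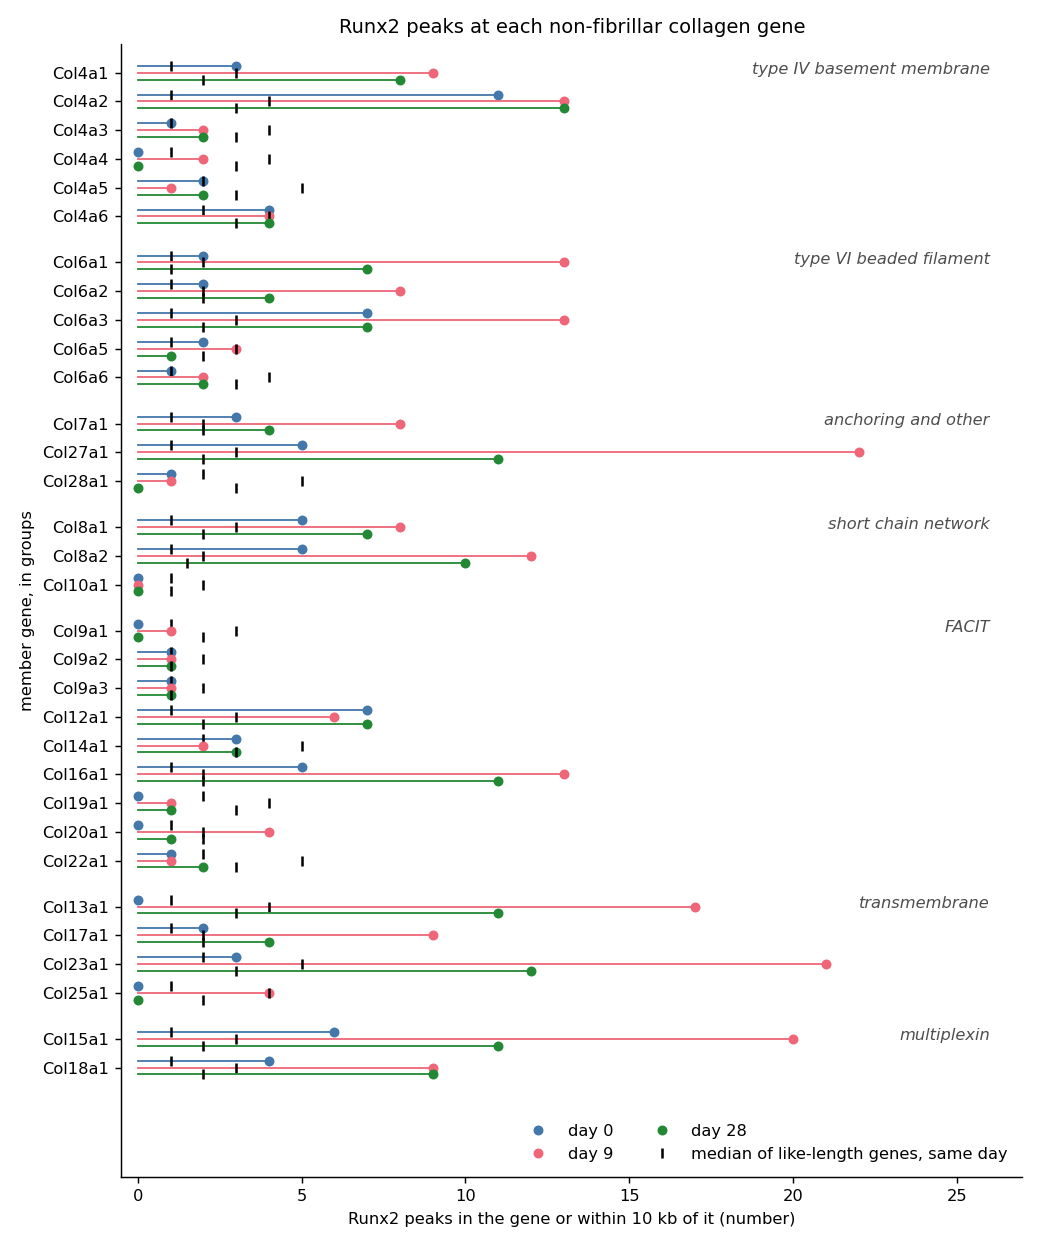
Number of Runx2 peaks in each member gene or within 10 kb of it (x axis) on day 0 (blue), day 9 (red) and day 28 (green), with members grouped by kind on the y axis and a black tick for the median of other genes of like length on the same day. Col27a1, Col23a1, Col15a1 and Col13a1 reach 17 to 22 peaks on day 9, while Col10a1 has none on any day.

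Set against genes of like length, the members varied widely. Each member was given the percentile of its peak number among the other genes of like length, with ties split. The median percentile was 64.9 on day 0, 72.6 on day 9 and 71.5 on day 28. On day 0, 6 members stood at the 90th percentile or above, 13 between the 50th and the 90th, and 13 below the 50th. These numbers were 11, 6 and 15 on day 9 and 9, 8 and 15 on day 28. Col6a3, Col8a2, Col15a1 and Col16a1 were at or above the 90th on all 3 days, and 11 members, among them all 3 type IX genes, were below the 50th on all 3.

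**Figure D2:**
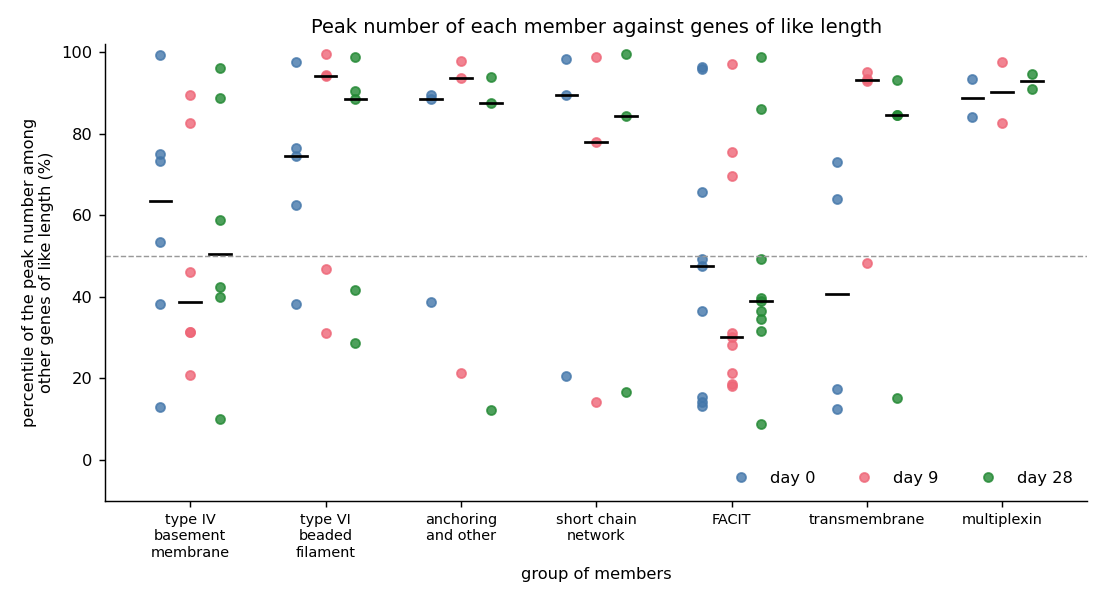
Percentile of each member's peak number among other protein-coding genes of like length (y axis, %), by group of members (x axis) and day (blue, day 0; red, day 9; green, day 28). Points are genes, short black lines are group medians and the dashed line is the 50th percentile. On day 9 the type VI median is 94.2 and the FACIT median 30.1.

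Type IV chains form the network of basement membranes, and their genes lie in head-to-head pairs. Col4a1 and Col4a2, which encode the chains found in nearly all basement membranes, held most of the 18, 29 and 26 peaks of the 6 genes on days 0, 9 and 28. Col4a2 had 11, 13 and 13 peaks on the 3 days, which put it at percentiles of 99.3, 89.5 and 96.1. Col4a1 had 3, 9 and 8 peaks, at percentiles of 75.0, 82.6 and 88.7. With lists of equal length Col4a2 had 11, 3 and 7 peaks and Col4a1 had 3, 5 and 7.

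The 2 genes start next to each other, and 1 region at chr8:11311973-11313502 covered both start sites on all 3 days. Its score was 334 on day 0, 157 on day 9 and 750 on day 28, at percentiles of 58.4, 28.8 and 71.7 of the lists. The shared start was thus bound on every day but ranked low on day 9. The highest-scoring day 9 peak of the pair was in intron 27 of Col4a1, the repeat window printed above. It had no peak on day 0, stood at percentile 100 on day 9, above the tie at 3100, and at 58.3 on day 28. A region in intron 4 of Col4a2 at chr8:11381113-11383386 was high on every day instead, at percentiles of 94.4, 91.2 and 88.2.

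The other type IV genes encode chains of more restricted membranes, such as that of the kidney glomerulus. Col4a5 had 2, 1 and 2 peaks, and Col4a6 had 4 on each day. Col4a3 had 1, 2 and 2 peaks. Its highest day 9 peak, with a score of 668, was in intron 1, and its other region covered the start site of the neighboring gene Mff. Col4a4 had 2 peaks on day 9, the higher in intron 38 with a score of 740, and none on day 0 or day 28. On day 9 these 4 genes lay between percentiles 20.9 and 46.0, on the sparse side.

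One region of Col4a6 ranked high on days 0 and 28 and low in between. In intron 3 at chrX:137727028-137727994 the score was 2026 on day 0, 259 on day 9 and 1404 on day 28. The percentiles were 97.6, 49.2 and 84.9. A region at chrX:137910115-137910887, at the 5′ end of Col4a5, lay within 10 kb of both genes of the pair and had percentiles of 28.3, 65.6 and 48.3.

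Type VI collagen makes the beaded filaments around cells, and its chains Col6a1, Col6a2 and Col6a3 form the common trimer. These 3 genes were among the most densely occupied. Col6a1, of only 17.4 kb, had 2, 13 and 7 peaks on days 0, 9 and 28, where genes of its length had a median of 1, 2 and 1. Its day 9 percentile of 99.6 was the highest of all members on that day. Col6a2 had 2, 8 and 4 peaks and Col6a3 had 7, 13 and 7.

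At Col6a1 only 2 regions, both over 7 kb before the gene, carried a peak on day 0. The start site itself, at chr10:76188364-76189166, was bound on days 9 and 28 with low scores of 117 and 123. The highest region on each day was the nearer of these 2, whose day 9 peak was centred 7180 bp before the gene, with percentiles of 55.7, 83.0 and 80.2. At Col6a2 the start region had scores of 267, 577 and 804 on the 3 days. Its upstream region, whose window is printed above, had 242, 1884 and 1031.

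In Col6a3 the highest day 9 score, 3115, fell on exon 37 at chr1:92671818-92672903, a position bound on days 9 and 28. Next to it, a region over the start of a shorter transcript at exon 34 had scores of 501, 2994 and 1954. Start sites near the 5′ end of the gene were covered on day 0 alone, by a peak with a score of 185. The highest scores of Col6a3 thus lay near its 3′ end.

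The remaining type VI genes, Col6a5 and Col6a6, encode alternative chains that can take the place of Col6a3. Col6a5 had 2, 3 and 1 peaks. Its main region at chr9:105862771-105863540 covered the start site and had percentiles of 81.0, 90.3 and 86.7. Col6a6 had 1, 2 and 2 peaks, the highest in intron 1. The Col6a5 peak numbers stood at percentiles of 62.4, 46.8 and 28.6 among genes of like length.

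Among the short chain collagens, Col8a1 and Col8a2 encode the network of Descemet's membrane and vessel walls, and Col10a1 is a marker of hypertrophic cartilage. Col8a2 had 5, 12 and 10 peaks in 27.5 kb, at percentiles of 98.2, 98.9 and 99.6. A region around an internal start site, at chr4:125977260-125979627, had highest scores of 544, 3100 and 3100, and one in intron 2 at chr4:125973742-125974801 had 385, 3100 and 2892. The internal start itself was covered on day 9 only by a weaker peak of that region, with a score of 133, and on day 28 by the peak of 3100. A peak of equal day 9 score, 7155 bp beyond the gene, covered the start site of Adprhl2. The gene's own first start site was bound on days 9 and 28, with scores of 408 and 456.

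Col8a1 had 5, 8 and 7 peaks. Its highest region, in intron 1 at chr16:57701472-57702423, was at percentiles of 95.1, 77.2 and 75.9, highest in rank on day 0. Col10a1 had no peak on any day. The nearest peak lay 20.9 kb from the gene on day 0, 21.0 kb on day 9 and 20.9 kb on day 28. At 7.11 kb it is the shortest member, and like-length genes had a median of 1, 2 and 1 peaks.

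The FACIT collagens coat fibrils of other types, and their genes were unevenly occupied. The 9 genes had 18, 30 and 27 peaks on days 0, 9 and 28, and Col12a1 and Col16a1 held most of them. Col16a1 had 5, 13 and 11 peaks, with percentiles of 96.4, 97.2 and 98.9. Its start region at chr4:129724387-129725803 had scores of 589, 3100 and 3036. A region in intron 42 at chr4:129751970-129753265 had 2309, 3100 and 3100, at percentiles of 98.3, 97.4 and 97.8.

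Col12a1, a collagen of tendon, ligament and periosteum, had 7, 6 and 7 peaks. It was one of 3 members with fewer peaks on day 9 than on day 0 in the full lists. Its highest region covered the start site at chr9:79566113-79566989, at percentiles of 88.6, 89.1 and 78.5. Col14a1, of the same kind of tissue, also had fewer on day 9, with 3, 2 and 3 peaks, and the third was Col4a5. With lists of equal length more members had fewer peaks on day 9, among them Col4a2, Col8a1 and Col18a1, while others, such as Col15a1, had more. The share of other genes with fewer peaks on day 9 was not counted. Col14a1 had no peak over its start site, and its highest region was in intron 8 at percentiles of 74.9, 50.6 and 55.3.

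The 7 other FACIT genes had 4 peaks or fewer on every day. The type IX genes are best known from cartilage. Col9a1 had a single day 9 peak with a score of 245 in intron 28. Col9a2 had 1 peak on each day, in intron 2, at percentiles of 10.8, 78.3 and 80.9. Col9a3 also had 1 on each day, and that peak lay at the start site of the neighboring gene Ogfr, 8247 bp before Col9a3.

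Col19a1, at 326 kb, had no peak on day 0 and 1 on each of the other days, in intron 19, at percentiles of 88.2 on day 9 and 50.6 on day 28. Col20a1 had 0, 4 and 1 peaks, and the highest lay 2617 bp beyond its 3′ end. Col22a1, found at junctions of muscle and tendon, had 1, 1 and 2 peaks. A region in its intron 38 at chr15:71720310-71721311 was at percentile 84.8 on day 0, absent on day 9 and at 13.6 on day 28, while the region in intron 3 was absent on day 0 and at 86.7 and 69.8 on days 9 and 28.

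The transmembrane collagens had few peaks on day 0 and many on day 9. The 4 genes Col13a1, Col17a1, Col23a1 and Col25a1 had 5 peaks on day 0, 51 on day 9 and 27 on day 28. With lists of equal length the counts were 5, 17 and 13.

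Col13a1, a collagen of cell-matrix adhesions, had no peak on day 0, 17 on day 9 and 11 on day 28. The nearest day 0 peak was 77.8 kb from the gene. All 17 regions lay in introns, 11 of them bound on days 9 and 28 and 6 on day 9 alone. The highest were in intron 2 at chr10:61419051-61420131, with scores of 2369 on day 9 and 757 on day 28, and in intron 14, with 2172 and 1161. No region covered a start site, and with lists of equal length Col13a1 had 0, 6 and 5 peaks.

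Col23a1 had 3, 21 and 12 peaks over 294 kb. Its highest region, in intron 2 at chr11:51207823-51208727, had no peak on day 0 and scores of 2963 and 668 on days 9 and 28. Of its 22 regions, 3 were bound on all days, and one of these covered the start site of Agxt2l2 beyond its 3′ end. The gene's own start site was bound with low scores of 105 on day 9 and 154 on day 28.

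Col17a1, a component of hemidesmosomes in skin, had 2, 9 and 4 peaks, the highest 4952 bp before the gene. That region was at percentiles of 89.5, 73.3 and 64.8 of the 3 lists. Col25a1, the longest member at 419 kb, had 4 peaks on day 9 and none on day 0 or day 28. The highest, in intron 5, had a score of 493, and the median of genes of its length on day 9 was 4.

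Multiplexins carry a helix broken into many pieces and a C-terminal domain that can be released, known for Col18a1 as endostatin. Col15a1 had 6, 20 and 11 peaks and Col18a1 had 4, 9 and 9. A pair of regions near the 3′ end of Col15a1 ranked in opposite orders over the days. The region over exon 39 at chr4:47322536-47324830 had percentiles of 97.5, 89.8 and 66.8. The region beyond the gene, at chr4:47331190-47332826, had 75.0, 97.4 and 99.8. The first was highest in rank on day 0 and the second on day 28. The second had a score of 3100 on day 9, inside the tie at that value, and of 3154 on day 28.

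The Col15a1 start site was bound on days 9 and 28 with scores of 751 and 450 and had no day 0 peak. Col18a1 had 9 of 10 regions in introns, and none scored above 730 on any day. Its region in intron 2 at chr10:76621346-76622344 was highest in rank on day 0, with percentiles of 84.4, 51.5 and 44.5, while another in the same intron, at chr10:76578925-76579778, was absent on day 0 and at 73.3 and 50.1.

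Of the remaining genes, Col27a1 encodes a chain with a long, fibril-type helix, found in cartilage. It had 5, 22 and 11 peaks, the most of any member on day 9, and 21 of its 22 regions lay in introns. A region in intron 37 at chr4:62970513-62974524 was 4012 bp wide and had a score of 3100 on all 3 days. Another in intron 21 at chr4:62942478-62943981 had percentiles of 49.3, 93.1 and 91.3. Of the 22 regions, 12 were bound on day 9 alone.

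Col7a1, which makes the anchoring fibrils of skin, had 3, 8 and 4 peaks and none over its start site. Of its 8 regions 5 lay beyond its 3′ end, 1 of them over the start site of Pfkfb4, and the highest, with a day 9 score of 2899, was 1364 bp inside Pfkfb4 from that start. Each of the 8 regions was nearer to the start site of another gene than to that of Col7a1. Col28a1 had 1 peak on day 0, 1 on day 9 and none on day 28 over its 195 kb. The day 0 peak was in intron 11 with a score of 211 and the day 9 peak in intron 14 with a score of 188.

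**Figure D3:**
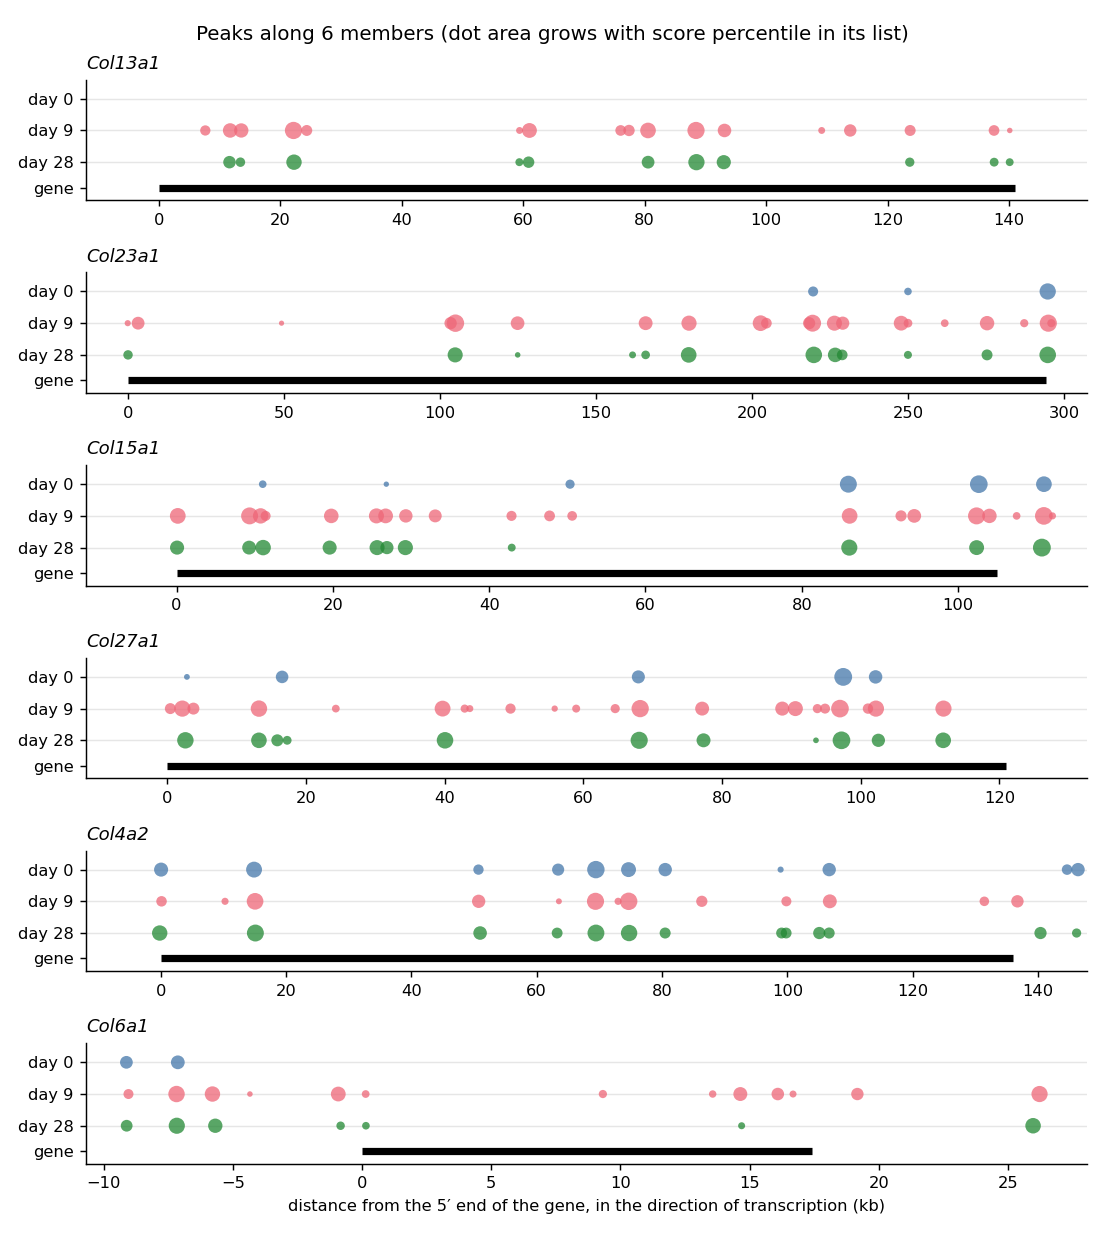
Positions of peak centres along 6 members by day (blue, day 0; red, day 9; green, day 28). The x axis is the distance in kb from the 5′ end of the gene in the direction of transcription, the black bar is the gene and dot area grows with the score percentile in that day's list. Col13a1 has no day 0 dot and 17 on day 9, whereas Col4a2 has 11 and 13, with 7 of its 19 regions bound on all 3 days.

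Merging peaks that shared at least 1 bp over the 3 days gave 247 regions at the members, of 67703 in the genome. Of these, 175 (70.9%) had their centre in an intron, 20 in an exon, 24 before and 26 beyond the gene, and 2 were inside the gene but outside the transcript used. The median distance to a start site of the member was 16.5 kb, and 20 regions (8.10%) lay within 1 kb of one. Regions were taken only from the genes and 10 kb on each side, which limits where they can lie. These places and distances were not counted for other genes, so they are no trait of the members alone. A start site of any protein-coding gene was covered by 24 regions, of which 17 covered one of a member and 7 one of a neighbor. For 206 of the 247 the nearest protein-coding start site was that of a member.

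By days, 61 regions (24.7%, interval 19.4 to 30.6) were bound on all 3 days, against 27.4% of all regions. Those of days 9 and 28 without day 0 numbered 71 (28.7%, interval 23.2 to 34.8), against 21.1%. Those of day 9 alone numbered 84 (34.0%, interval 28.1 to 40.3), against 34.5%. The share of the days 9 and 28 pattern was the one whose interval lay above that of all regions, and day 28 alone, with 9 regions (3.64%, interval 1.68 to 6.80, against 7.59%), was the one below. The days 0 and 28 pattern had 9 regions, day 0 alone 8, and days 0 and 9 had 5. Regions of 1 gene are not independent of each other, and Col13a1 alone gave 11 of the 71.

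With lists of equal length the days 9 and 28 share at the members was 22.9% and the day 9 alone share 12.9%, so these shares changed with the lists used. Equal lists also raise the lowest score kept on days 9 and 28. The shares of all regions were not counted with equal lists. Whether the members still differ from the genome there cannot be told. In the 61 regions bound on all days, 42 (68.9%, interval 55.7 to 80.1) had a higher percentile on day 9 than on day 0, against 75.5% of the 18584 such regions in the genome. Their median percentile was 58.5 on day 0, 72.4 on day 9 and 72.7 on day 28.

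**Figure D4:**
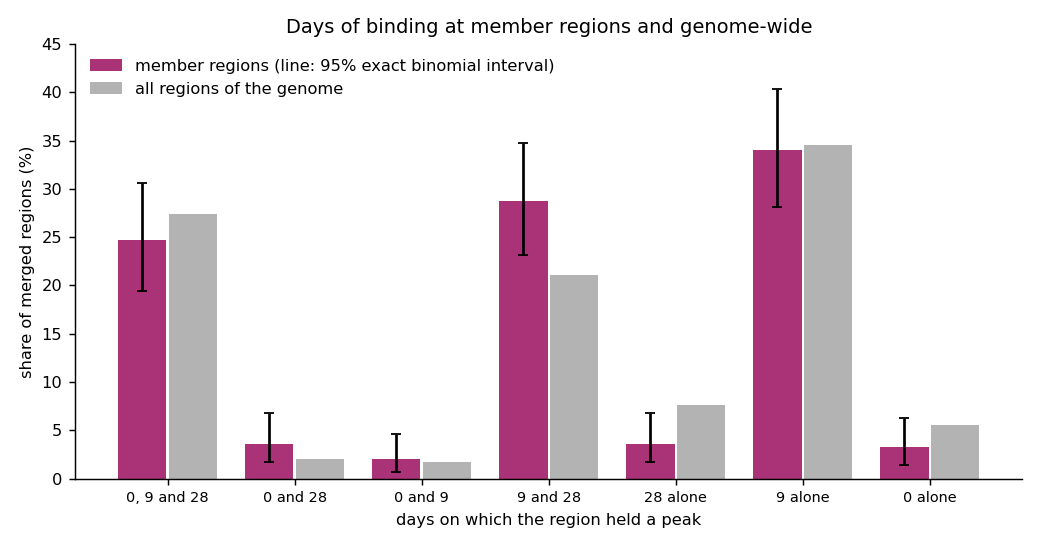
Share of merged regions (y axis, %) by the days on which they held a peak (x axis), for the 247 member regions (purple, with exact 95% binomial intervals) and for all 67703 regions (gray). The members' bar for days 9 and 28 is 28.7% against 21.1% genome-wide, and that for day 28 alone 3.64% against 7.59%.

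Promoter peaks were about as frequent at the members as at other genes. A promoter peak, one that met the stretch from 1000 bp before to 150 bp after any protein-coding start site of the gene, was found in 12 members on day 0 (37.5%), against 42.7% of all genes. On day 9 it was found in 14 members (43.8%), against 51.6%, and on day 28 in 15 (46.9%), against 50.1%. On all 3 days one was found in 10 members, namely Col4a1, Col4a2, Col6a2, Col6a3, Col6a5, Col8a1, Col8a2, Col12a1, Col16a1 and Col18a1. Col6a1, Col15a1, Col23a1 and Col27a1 had one on days 9 and 28 only, Col4a6 on day 0 only and Col4a5 on days 0 and 28. The Col4a6 peak was the day 0 peak over the Col4a5 start site, with a score of 114, and only its edge reached the Col4a6 promoter. The day 28 peak of that region, from chrX:137909635, fell just short of it. The other 16 had none. The shares of all genes with these combinations of days were not counted. Internal start sites count here, and those of Col18a1 on every day, Col8a2 on day 0 and Col6a3 on day 28 were all internal. With the 5′ end of the gene alone, a promoter peak was found in 10, 12 and 12 members on days 0, 9 and 28. The share of all genes was not counted that way.

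Few of the 32 members, with or without a promoter peak, held the hexamer around their 5′ end. In the stretch from 250 bases before to 50 after the 5′ end of the gene, read on both strands, it occurred in 2 of 32 members (6.25%, interval 0.766 to 20.8), Col8a1 and Col17a1. The share of the 22359 genes, 15.3%, lies inside this interval. Col17a1 had no promoter peak on any day, and start sites away from the 5′ end were not searched. The 2 stretches of 250 bases printed here, 5′ to 3′ along the direction of transcription with the hexamer in capitals, show a promoter with the hexamer and low scores next to one without it and with high scores.
Col8a1 (minus strand, chr16:57754851-57755100): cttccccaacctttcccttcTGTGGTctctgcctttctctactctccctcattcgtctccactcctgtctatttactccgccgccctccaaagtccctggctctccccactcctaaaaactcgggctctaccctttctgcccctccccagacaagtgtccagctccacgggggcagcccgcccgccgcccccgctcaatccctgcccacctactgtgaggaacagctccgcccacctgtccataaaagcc
Col16a1 (plus strand, chr4:129724834-129725083): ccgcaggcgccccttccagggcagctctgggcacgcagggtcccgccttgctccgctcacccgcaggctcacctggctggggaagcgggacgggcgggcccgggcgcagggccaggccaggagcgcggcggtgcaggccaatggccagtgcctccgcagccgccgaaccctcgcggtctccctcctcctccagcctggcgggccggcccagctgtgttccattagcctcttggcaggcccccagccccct
The peaks that met the Col8a1 stretch had scores of 133, 118 and 298 on days 0, 9 and 28, and those that met the Col16a1 stretch 589, 3100 and 3036. The day 9 peak at Col8a1 ended at chr16:57754973, short of the hexamer, which the day 0 and day 28 peaks contained. This pair was picked after the values were seen, and a relation of hexamer to score was not tested. G and C made up 60.8% of the first and 75.6% of the second.

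At the centres of member peaks the hexamer was more frequent than in their flanks on all 3 days. On day 0, 23 of 84 peaks (27.4%, interval 18.2 to 38.2) had it within 50 bp of the centre, against 10.1% of windows 450 to 550 bp away. On day 9 the values were 57 of 229 (24.9%, interval 19.4 to 31.0) and 7.86%. On day 28 they were 46 of 153 (30.1%, interval 22.9 to 38.0) and 5.88%. Over all peaks of the lists the shares at the centre were 16.0%, 25.3% and 20.9%.

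The share of all peaks thus lay below the members' interval on days 0 and 28 and inside it on day 9. Member peaks, however, covered start sites less often, in 19.0% of cases on day 0 against 33.1% for the whole list. Among peaks that covered no start site the shares were 32.4% (interval 21.5 to 44.8), 27.5% (21.6 to 34.2) and 32.8% (24.9 to 41.6) at the members. Over the whole lists they were 21.8%, 29.7% and 26.5%, which lie inside the members' intervals on all 3 days. Of the member peaks over a start site, 1 of 16 on day 0, 0 of 22 on day 9 and 3 of 22 on day 28 had the hexamer at the centre. The upper limits of these shares were 30.2%, 15.4% and 34.9%, against shares of 4.19%, 4.62% and 4.29% over all such peaks.

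**Figure D5:**
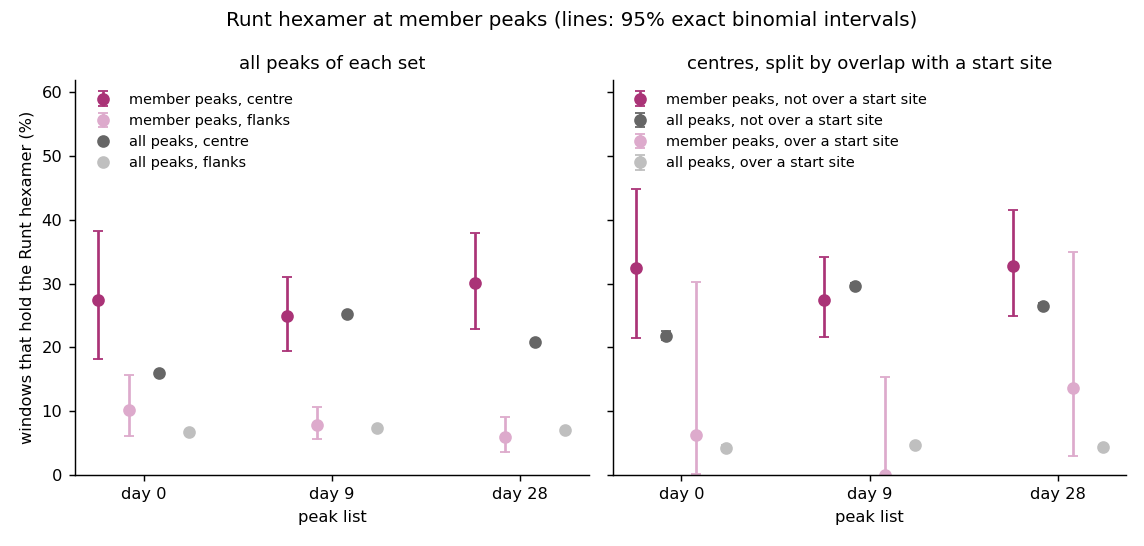
Share of windows of 50 bp to either side with the Runt hexamer (y axis, %) on each day (x axis). Left, centres and flanks of member peaks (purple and pink, with exact 95% binomial intervals) and of all peaks (dark and light gray, no interval drawn). Right, centres split by whether the peak covers a protein-coding start site, all with intervals, most of those of all peaks being smaller than the point. Member centres lie between 24.9% and 30.1%, their flanks between 5.88% and 10.1%.

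Peaks at the members were of ordinary strength and width. The median score percentile of member peaks in their own list was 52.6 on day 0, 50.6 on day 9 and 50.3 on day 28. Their median width was 951, 586 and 791 bp, against 917, 554 and 763 bp over the lists.

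The fibrillar collagen genes, taken the same way, give the nearest comparison. Of the 10 genes 9, 10 and 10 had a peak on days 0, 9 and 28, and their median percentiles among like-length genes were 88.2, 87.3 and 92.0. Promoter peaks were present in 5, 7 and 9 of them. Col1a1 and Col1a2, the main chains of bone, had 7, 17 and 10 and 4, 13 and 10 peaks. The non-fibrillar genes thus had lower medians. Of their best occupied members, picked here for high percentiles, Col4a2, Col8a2, Col15a1, Col16a1 and Col27a1 lay above the fibrillar median on all 3 days. Col6a1 lay above it on days 9 and 28 but stood at 76.5 on day 0. The difference between the families was not tested.

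Genes whose products work with the members were counted in the same way. Among 16 basement membrane partners, the laminin chains, nidogens, perlecan, agrin and peroxidasin, 13, 16 and 15 had a peak, and their median percentiles were 43.4, 62.5 and 60.4. Hspg2, which encodes perlecan, had the most, with 7, 21 and 12 peaks, and Lama5 had 3, 15 and 10. All 9 collagen folding and secretion genes found in the annotation, the prolyl and lysyl hydroxylases, Serpinh1 and Ctage5, had a promoter peak on all 3 days. Among the members this held for 10 of 32. That difference was not tested. Promoter peaks were found in 42.7%, 51.6% and 50.1% of all genes on days 0, 9 and 28, and the share of all genes with one on all 3 days was not counted.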

How the data were processed

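Runx2 ChIP-Seq peaks of MC3T3-E1 cells at days 0, 9 and 28 were analyzed. The authors pooled 2 libraries per day, mapped reads to mm9 with Bowtie 0.12.8 after CASAVA 1.6 base calling, and called peaks with MACS 1.4.1 against day 9 input at p under 1e-10 (versions from the submitters' processing notes). The deposited score is 10 times -log10 p. It ranges from 100 to 3233, grows with depth and has many ties at 3100. Ranks were taken as percentiles within a list. Raw scores are also printed for different days and genes, as description only, and their differences were not tested.

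Peaks were assigned to GENCODE M1 protein-coding genes of mm9, leaving out the mitochondrial genome. Introns and exons are numbered on the coding transcript that spans most of the gene. Coordinates are 1-based, and all 126383 peaks lay within the NCBIM37 chromosomes. Intervals are exact (Clopper-Pearson, 95%). No test was run, since each day is 1 list. Counting was checked on simulated peaks. Scripts ran under SciPy 1.17.1 with NumPy 2.4.6, figures under Matplotlib 3.10.9, in Python 3.11.15. Colgalt1, Colgalt2 and Mia3 were not found by symbol and are not analysed here. Members and gene lists were chosen with earlier results of these data known. The text names all 32 members and the region or peak with the highest day 9 score of each of the 31 with a day 9 peak, and further regions chosen after their values were seen. Neighbors are named where a member's peak covers their start site. Alternatives were other score thresholds, equal list lengths, other windows around genes, promoters and peak centers, another length factor, another motif spelling, other merging rules, and Col27a1 left out.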

Additional observations from a re-analysis of the deposited data

How the results depend on the processing

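No paired analysis was possible because the authors pooled the replicates into 1 list per day. Of 162 values recomputed under alternatives, 134 stayed within 1.5 times the count or inside the interval, and 28 moved. The number of members with a peak and the median percentile among like-length genes stayed in all 27 cases each. A fall from 25 to 17 members on day 0, at p of 1e-50 or less, still counted as staying. The intervals of the median percentile were wide, at 38.2 to 84.1, 31.1 to 93.4 and 39 to 88.7 on days 0, 9 and 28. Staying inside them therefore says little. The percentile still ranged down to 50.7 on day 28 for the gene body alone, against 71.5. With Col27a1 left out it was 64, 69.5 and 58.7 on days 0, 9 and 28, against 64.9, 72.6 and 71.5. At p of 1e-20 or less the members had 137 peaks on day 9, and 0.633% of their regions were of days 0 and 9, 27.8% of day 9 alone and 6.96% of day 0 alone. At p of 1e-50 or less they had 25, 74 and 56 peaks on days 0, 9 and 28, the hexamer share on day 0 was 12.0% (of 25 peaks), promoter peaks were found in 5, 8 and 9 members, and 39.3% of regions were of days 9 and 28, 27.4% of day 9 alone and 0 of days 0 and 9. With equal lists they had 96 and 97 peaks on days 9 and 28 and 9 members with a promoter peak on day 9, and the region shares were 32.1% for all days, 8.57% for days 0 and 28, 0 for days 0 and 9, 22.9% for days 9 and 28, 12.9% for day 9 alone and 18.6% for day 0 alone. With regions joined only where the 100 bp around the centers met, the shares were 10.2% for all days, 17.5% for days 9 and 28, 17.2% for day 28 alone and 10.2% for day 0 alone, and with the hexamer sought within 100 bp its day 9 share was 42.8%. Stricter scores and equal lists keep fewer peaks by construction, and other causes were not tested. Restricting the hexamer count to peaks over no start site, and leaving peaks over a start site out of the counts per gene, were added after seeing the data and moved no value. Replicate spread is not part of the peak files, so differences between days have no error, and read depth was not used here.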
